A study of Cyprinus carpio 'koi' with 9 samples.

Results

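The long noncoding RNAs (lncRNAs) described here are 4 named transcripts of Koi carp skin, all low in or absent from white skin. They are Ccr_lnc6842391 (TRINITY_GG_68423_c9_g1), Ccr_lnc765201 (TRINITY_GG_7652_c0_g1), Ccr_lnc13007521 (TRINITY_GG_130075_c2_g1) and Ccr_lnc17821911 (TRINITY_GG_178219_c1_g1). They were found by matching these identifiers in the deposited tables, and all 4 were present among 446614 assembled genes. The study lists each of them among its 92 lncRNAs that differ between colors. The names had been chosen because white skin was low in these data, so black against white (BS against WS) and red against white (RS against WS) are given as description, with no test. Red against black (RS against BS) was not the comparison behind that choice and is the one tested. The red and black levels of these libraries still entered the choice, and the list of 92 drew on red against black too. The red against black tests are therefore not independent of how the names were chosen.

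The study took black, red and white skin from Koi carp of the FFRC strain, an ornamental form of the common carp, kept at 24 °C. The fish were tranquilized before the skin was taken, and no treatment that differed between the colors is described. Each fish carried patches of all 3 colors, and 3 fish gave 3 libraries of BS, 3 of RS and 3 of WS, numbered 1 to 3 within each color. That libraries of 1 number come from 1 fish is not stated in words. Age and sex are not given in the sources used here. Poly(A) RNA was read as pairs of 150 bp, and each library held between 13773868 and 25002494 expected counts, which are RSEM's estimates of the read pairs from each gene. The largest single gene took from 1.2% to 23.4% of a library. Libraries with the same number varied together (r of their deviations 0.49 to 0.75 over 9 pairs), so the replicate number was also used as a block.

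A lncRNA is a transcript with no recognised protein-coding frame, and some lncRNAs act on genes near their own locus. Fish skin color is set by pigment cells that arise from the neural crest. Melanophores make black melanin from tyrosine inside melanosomes, xanthophores and erythrophores hold yellow to red pteridines and carotenoids, and iridophores and leucophores give reflective or white skin. Mitf, a basic helix-loop-helix leucine zipper factor, drives the melanophore lineage and its melanin genes, and the study places Ccr_lnc17821911 beside it. No function is known here for any of the 4 lncRNAs. In whole skin, fewer cells of a type and less RNA per cell cannot be told apart.

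PCR primers used in the study were found for Ccr_lnc17821911 and for no other of these lncRNAs. The pair is shown because the study lists it under the name of a transcript whose level is followed below. Each primer is 20 bases long. The link is by name, and the primers were not matched to the transcript sequence here.
Forward primer: accccaaggttccaattttc
Reverse primer: ggggtctcagtcaaacctga
The forward primer is 45% G and C and the reverse primer 55%.

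By level, the 4 lncRNAs fell into 3 patterns. Ccr_lnc6842391 was in every black library, in 1 red library and in no white library. Ccr_lnc765201 and Ccr_lnc13007521 were higher in red than in black skin of every replicate number. Ccr_lnc17821911 had overlapping levels in black and red skin and was the only one read in all 3 white libraries. Levels between genes are compared in TPM (a transcript's share of all transcripts in a library, corrected for its length). On that scale Ccr_lnc17821911 was the highest of the 4 in 6 of the 9 libraries, and the highest in black library 3 was Ccr_lnc6842391, in red library 2 Ccr_lnc13007521 and in red library 3 Ccr_lnc765201. The highest one held from 47.9% (red library 1) to 75.3% (red library 3) of the summed TPM of the 4 in the colored libraries.

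**Figure D1:**
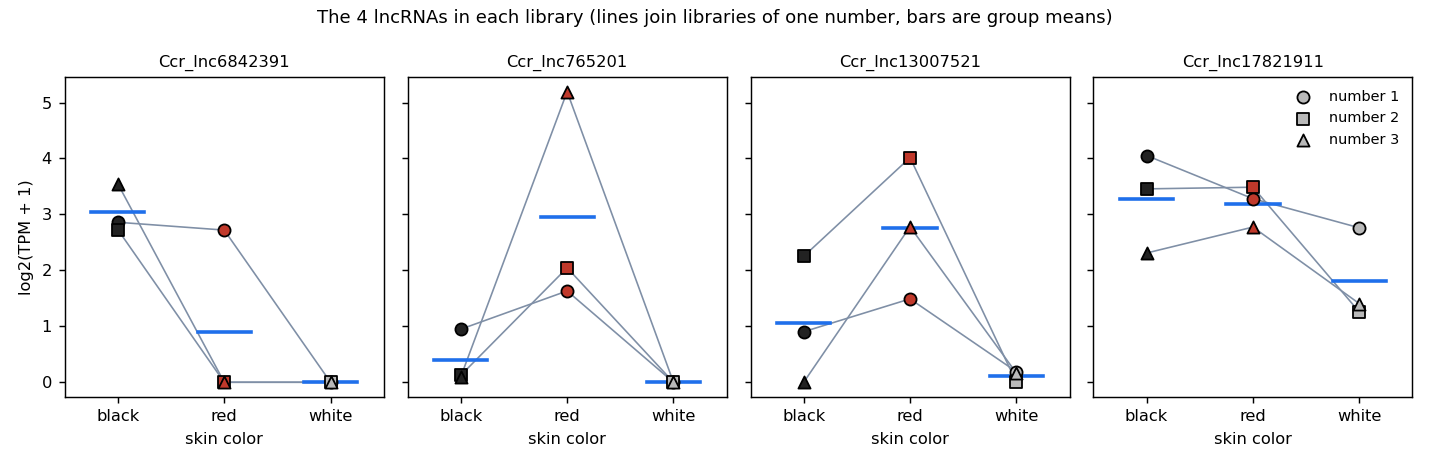
Level of each lncRNA, as log2(TPM + 1), in black, red and white skin, with 1 point per library, lines between libraries of the same number and bars at the mean of 3 libraries. Ccr_lnc6842391 is in red library 1 at 5.59 TPM and at 0 in the other red libraries, Ccr_lnc765201 and Ccr_lnc13007521 peak in red skin, and Ccr_lnc17821911 is above 0 in all 9 libraries.

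Ccr_lnc6842391 leaned to black skin, through red libraries 2 and 3 at 0. It is 1 transcript of 591 bp. Its TPM was 6.26, 5.62 and 10.68 in black libraries 1, 2 and 3, then 5.59 in red library 1, and 0 in red libraries 2 and 3 and all 3 WS libraries. The expected counts were 60.51, 87.00 and 120.60 in black skin and 63.45 in red library 1, so the presence in red library 1 does not rest on a few reads. The counts are not whole in 3 libraries, red library 1 among them, so RSEM divided some reads with other assembled genes. The black libraries had a mean of 7.52 ± 2.76 TPM (SD, n = 3), while the red mean of 1.86 ± 3.23 TPM (SD, n = 3) came from red library 1 alone. In TMM CPM (counts scaled to library size with a correction for a few very abundant genes) red library 1 held 8.14 and black library 1 held 5.75. The value of black library 1 was the highest of the black libraries, so red library 1 was above all of them. The order of these libraries of number 1 thus turned with the scaling, and RS and BS did not overlap in TPM but did in TMM CPM. In red against black skin the log2 fold change was -0.97 ± 1.92 (SE; edgeR quasi-likelihood test, FDR = 1.00 with Benjamini-Hochberg adjustment over all genes). With the replicate block it was -3.99 ± 2.08 (SE, FDR = 1.00). Without red library 1 the red libraries are all at 0, and red library 1 therefore decides the size of this difference. The exact two-sided permutation test gave p = 0.1 on TPM, the smallest p that 3 libraries against 3 allow, and p = 0.4 on TMM CPM. It took no account of the replicate number.

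Red library 1 was low in the melanin-related features of the study. The summed TPM of 7 features that the study lists under tyrosine metabolism, the start of melanin synthesis, was 5.32, 35.43 and 6.11 in black libraries 1, 2 and 3. It was 0.21 in red library 1, 3.70 in red library 2 and 0.67 in red library 3, and 0.92, 3.02 and 1.39 in the white libraries. Red library 1 was the lowest of the 9 on this measure and also on the 11 melanosome organization features, at 0.36 against 7.89 to 89.43 in black skin. On 14 features listed under melanogenesis, a signalling pathway wider than melanin synthesis, it was at 8.94, within the black range of 7.50 to 42.14. That range also held red libraries 2 and 3 (32.25 and 22.35) and white libraries 2 and 3 (16.61 and 40.01). White library 1 was above it, at 72.54. Red library 1 also had 14.9% of its counts in a single gene and a TMM factor of 0.47, against 0.71 to 1.41 in the other libraries. Their part in the level of Ccr_lnc6842391 in red library 1 was not tested.

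Ccr_lnc765201 was the red-biased lncRNA with the widest gap. It is assembled as 2 transcripts. Its TPM was 2.10, 3.13 and 35.62 in red libraries 1, 2 and 3, then 0.93, 0.09 and 0.07 in black libraries 1, 2 and 3, and 0 in all 3 WS libraries. The expected counts were 23.00, 40.02 and 383.81 in red skin and 11, 1.86 and 1 in black skin, so the black levels of numbers 2 and 3 rest on 1 or 2 read pairs. In 3 libraries the counts are not whole, so some reads were divided with other assembled genes. RS and BS did not overlap in TPM or in TMM CPM. Red library 3 was far above the other red libraries on both scales, and its TMM CPM was 22.5 against 2.95 and 1.37 in red libraries 1 and 2. The mean was 13.6 ± 19.1 TPM in RS and 0.363 ± 0.491 TPM in BS (SD, n = 3 each). In red against black skin the log2 fold change was 4.67 ± 1.60 (SE; edgeR quasi-likelihood test, FDR = 1.00), and it was 4.30 ± 1.43 with the replicate block (FDR = 1.00). It therefore did not pass the threshold over all genes, and the exact permutation p was 0.1 on TPM, the smallest possible. Without the filter on low counts it did (edgeR log2 fold change 4.75 ± 1.07, FDR = 0.00934), in a fit that called 0.124% of 285309 genes. The log2 fold change hardly moved between these fits while the SE fell from 1.60 to 1.07. The call thus came with a smaller SE, and the cause of that was not tested. In the fit with the filter, the log2 fold change was 2.53 without red library 3 and 6.93 without black library 1.

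The assembled length that RSEM reports for Ccr_lnc765201 is a mean over its transcripts, weighted by their estimated levels. It was 659 bp in all 3 black libraries and 580.51, 609.36 and 624.92 bp in red libraries 1, 2 and 3. The 3 red libraries were thus below the 3 black libraries. The black lengths rest on 13.86 counts in all, and whether the colors use different transcripts was not tested.

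Ccr_lnc13007521 also leaned to red skin. It is 1 transcript of 544 bp. Its TPM was 1.81, 15.18 and 5.87 in red libraries 1, 2 and 3, then 0.87, 3.76 and 0 in black libraries 1, 2 and 3, and 0.14, 0 and 0.12 in white libraries 1, 2 and 3. The expected counts were 17.37, 144.43 and 47.93 in red skin, 7.11, 46.62 and 0 in black skin, and 1, 0 and 1 in white skin. These counts are not whole in 5 libraries, so some reads were divided with other assembled genes. Number 2 was the highest in both colored groups, and red library 1 lay below black library 2, so the groups overlapped in TPM. Within each number red was above black, by 2.08 times in number 1 and 4.04 times in number 2, while black library 3 was at 0. In TMM CPM the groups did not overlap. The mean was 7.62 ± 6.85 TPM in RS and 1.54 ± 1.97 TPM in BS (SD, n = 3 each). In red against black skin the log2 fold change was 1.80 ± 1.38 (SE; edgeR quasi-likelihood test, FDR = 1.00), and with the replicate block 2.56 ± 1.19 (FDR = 1.00). The exact permutation p was 0.2 on TPM and 0.1 on TMM CPM. Without black library 2 the log2 fold change was 3.49.

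Ccr_lnc17821911, the lncRNA placed beside Mitf, was shared by black and red skin. It is 1 transcript of 1155 bp. Its TPM was 15.60, 9.98 and 3.96 in black libraries 1, 2 and 3, then 8.72, 10.21 and 5.84 in red libraries 1, 2 and 3, and 5.78, 1.39 and 1.65 in white libraries 1, 2 and 3. With 45 to 528.21 expected counts in every library it is the best counted of the 4. Its counts are not whole in 8 libraries, so RSEM divided some of its reads with other assembled genes too. The red libraries lay inside the black range. In TPM, black was above red in number 1 and below it in numbers 2 and 3. The mean was 9.85 ± 5.82 TPM in BS and 8.26 ± 2.22 TPM in RS (SD, n = 3 each). In red against black skin the log2 fold change was -0.23 ± 0.82 (SE; edgeR quasi-likelihood test, FDR = 1.00), with a 95% interval of -2.17 to 1.70 from the degrees of freedom of the test. With the replicate block it was -0.07 ± 0.35 (FDR = 1.00), with an interval of -0.94 to 0.81. The exact permutation p was 0.8 on TPM. Differences inside these intervals could not be seen at this number of libraries, and the sign of the value turned when black library 1 (0.39) or red library 3 (0.09) was left out.

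Over all genes, red against black skin gave 0 calls among 65727 genes tested (0%; a call needs an FDR no higher than 0.05 and a log2 fold change of 1 or more in size), and 216 genes had an unadjusted p under 0.05 in edgeR's quasi-likelihood test. The members called were likewise 0 of 4. If no gene differed and the test were exact, a share near 0.05 of the genes would fall under that p. The 216 genes are far fewer, and so are the 1247 found with the replicate block. The edgeR test was thus conservative here, and 0 calls and high FDR values do not show equal levels. DESeq2's Wald test called 33 genes (0.0502%) and none of the 4. Separation in TPM, with every red library above every black one, was seen in 0.624% of the genes tested, and the reverse in 0.849%. Among the 4 lncRNAs Ccr_lnc765201 was separated upward and Ccr_lnc6842391 downward. Red was above black in all 3 numbers in 6.74% of genes by TPM, and in 2 of the 4 lncRNAs, Ccr_lnc765201 and Ccr_lnc13007521. It was below black in all 3 numbers in 6.68% of genes and in Ccr_lnc6842391. By TMM CPM the separated genes were 1.2% upward, with Ccr_lnc765201 and Ccr_lnc13007521 among them, and 1.65% downward, with none of the 4. Red was then above black in all 3 numbers in 11.1% of genes, among them the same pair of lncRNAs. Nothing is read from the members set beside these shares, since the study listed all 4 as differing between colors in these libraries.

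**Figure D2:**
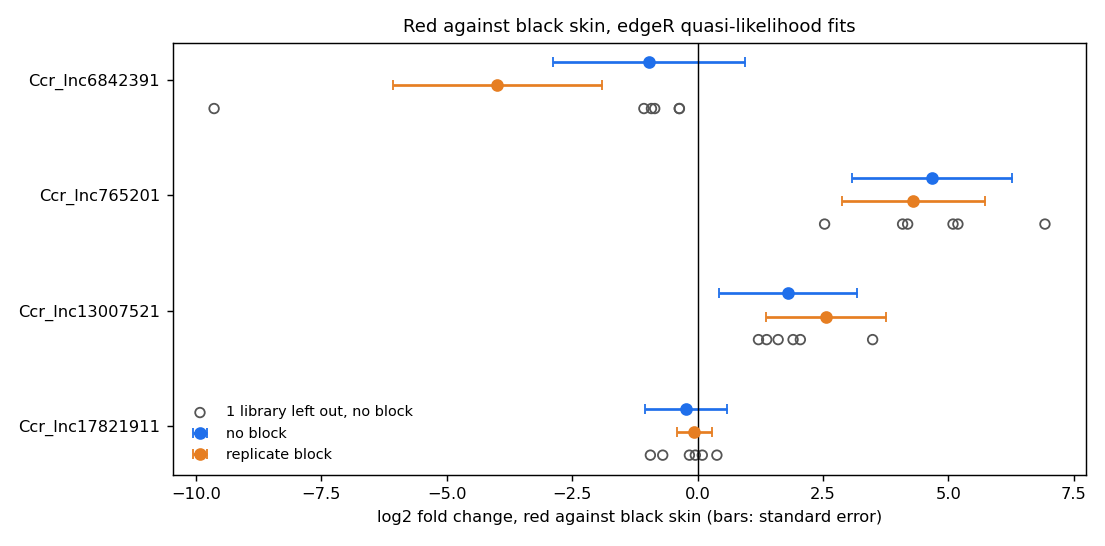
Log2 fold change of each lncRNA in red against black skin from edgeR's quasi-likelihood fit, without a block (blue) and with a replicate block (orange), with bars of 1 SE, and open circles for the fit without the block when 1 library is left out. Ccr_lnc765201 lies above 0 in every fit shown, Ccr_lnc17821911 on either side of 0, and the point near -9.64 for Ccr_lnc6842391 is the fit without red library 1, where red skin is at 0 and the value depends on the prior count.

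Against white skin the values describe how the lncRNAs were chosen. With no count in 3 white libraries, white skin was held at a floor of 3 counts over the group. Ccr_lnc6842391 was then at least 80.6-fold higher in black skin and at least 21.3-fold higher in red skin, the latter from red library 1 alone. Ccr_lnc765201 was at least 150-fold higher in red skin and at least 4.17-fold higher in black skin. Red library 3 held 85.9% of the red counts, and without it the bound was 29.8-fold. Black library 1 held 79.4% of the black counts, and without it 2.86 counts were left, which is under the floor. These bounds use counts pooled over 3 libraries scaled to the library totals, and they cover counting error only. Ccr_lnc13007521 had 2 counts in white skin, which gives a ratio of 106 in red skin (exact 95% counting interval 28.9 to 878) and of 24.3 in black skin (6.42 to 206), although black library 3 itself was at 0. Libraries of number 2 held most of these counts, and the ratio was 54.3 without red library 2 and 5.6 without black library 2. Leaving libraries out of these pooled values was chosen after seeing the data.

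Ccr_lnc17821911 was lower in white skin but not absent from it. White library 1, at 5.78 TPM, was above black library 3 (3.96) and just under red library 3 (5.84). Black overlapped white, and red lay above white by the width of these last values. Within each number white was the lowest of the 3 colors. Black was above white by 2.70, 7.18 and 2.4 times in numbers 1, 2 and 3, and red above white by 1.51, 7.35 and 3.54 times. The fitted log2 fold change was 2.38 ± 0.95 (SE) for black and 2.12 ± 0.85 for red against white, and 2.36 ± 0.53 and 2.30 ± 0.31 with the replicate block. With 1 library left out it ranged from 1.76 (without black library 1) to 3.48 (without white library 1) for black, and from 1.43 (without red library 1) to 3.26 (without white library 1) for red.

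In black against white skin, 2 of the 4 lncRNAs, Ccr_lnc6842391 and Ccr_lnc765201, had every black library above every white one, which held for 0.356% of the 68812 genes tested in TPM. In red against white skin it held for 3 of the 4, all but Ccr_lnc6842391, and for 0.24% of 66740 genes. Presence in all libraries of a color with 0 in all white libraries held for Ccr_lnc6842391 and Ccr_lnc765201 in black (0.0334% of genes tested) and for Ccr_lnc765201 in red (0.015%). A color above white in all 3 numbers held for all 4 lncRNAs but Ccr_lnc13007521 in black (2.35% of genes) and all but Ccr_lnc6842391 in red (1.67%). Nothing is read from these counts, since the names were chosen on these comparisons. Ccr_lnc765201 and Ccr_lnc13007521 were under the count filter in black against white, and Ccr_lnc6842391 in red against white. In those comparisons they are thus not among the genes tested from which the shares were taken. The 2 scales differ for the whole transcriptome. By log2(TPM + 1) the median gene was -0.27 in both comparisons with white skin, and by TMM-scaled counts it was 0.01 in black and -0.02 in red against white, so TPM ratios to white skin start below an even level.

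The genes that the study names as neighbours of the 4 lncRNAs had few or no counts in most libraries. They resolve to 6 assembled genes, of which 0 passed the filter in red against black skin. For Ccr_lnc17821911 the neighbour is TRINITY_GG_28052_c0_g1, which the study's list names both Mitf and Adgrl1 (a latrophilin-type adhesion receptor). It had 1 count in black library 2, 1 in black library 3 and 4 in white library 2, and 0 in the other 6 libraries. Its lncRNA had 45 or more counts in each of the same libraries, so the level of the pair cannot be followed together in these tables.

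Slc12a2, a sodium, potassium and chloride cotransporter, is listed beside Ccr_lnc765201 and had 2 counts in black library 2 and 2 in white library 1. Muc5b, a gel-forming mucin listed beside the same lncRNA, was at 0 in all 9 libraries. The assembled genes given the names Slc12a2 and Muc5b are short, at 344 and 245 bp. Their effective length, the stretch on which a read pair can start, was 29.72 to 67.84 bp and 4.97 to 10.71 bp. Such short pieces collect few reads, so these counts do not show that the genes are silent in skin. The neighbour of Ccr_lnc13007521, LOC81363101, had 3 counts, all in red library 3. Of the neighbours of Ccr_lnc6842391, LOC6841051 had 33.42 counts in black library 2, 9.78 in red library 2 and 19.92 in white library 2 and 0 elsewhere, which follows the replicate number and not the color. The other, LOC68423171, had at most 4 counts in any library. No red library that carried Ccr_lnc765201 had a count of its named neighbours.

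Genes sharing an assembly number with a member come from the same group of reads in the genome-guided assembly. Ccr_lnc6842391 shares its number with 13 other assembled genes, Ccr_lnc13007521 with 3, and the other lncRNAs with 0. Of the 13, 5 reached 10 counts in some library and 1 was tested in red against black skin, TRINITY_GG_68423_c2_g1. Its counts were 15, 0 and 118 in black, 3, 0 and 23 in red and 47, 19 and 69 in white skin. White skin, where Ccr_lnc6842391 is at 0, thus held 135 counts of this gene in all, and black skin 133. Its red against black log2 fold change was -1.89 ± 1.95 (SE; edgeR quasi-likelihood test, FDR = 1.00).

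A set of Mitf features other than the listed neighbour was looked up after values had been seen. It consists of 4 assembled genes annotated with the KEGG ortholog of Mitf. The annotation is the study's and covers genes picked for a difference in these samples. Their summed TPM was 1.34, 5.91 and 2.59 in black libraries 1, 2 and 3, then 1.94, 24.41 and 9.59 in red libraries 1, 2 and 3, and 0, 0.06 and 0.06 in white libraries 1, 2 and 3. Red was above black in each number, and white skin was near 0. By group means this is the order of colors seen for Ccr_lnc13007521 and Ccr_lnc765201 and not that of Ccr_lnc17821911. In number 3, however, Ccr_lnc13007521 was at 0 in black and at 0.12 TPM in white skin. Ccr_lnc17821911 had 5.78 TPM in white library 1, where the Mitf sum was 0. Of the 4 features 3 were tested in red against black skin, with log2 fold changes of 0.80 to 1.98, and 0 were called by edgeR's quasi-likelihood test (background 0%).

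Over the 9 libraries, Pearson's r of log2(TPM + 1) with the Mitf sum was 0.93 for Ccr_lnc13007521, 0.63 for Ccr_lnc765201, 0.55 for Ccr_lnc17821911 and 0.06 for Ccr_lnc6842391. Spearman's rho was 0.73, 0.83, 0.53 and 0.17 in the same order, so by rank Ccr_lnc765201 was closer to the sum than Ccr_lnc13007521. These are descriptions over libraries that share 3 numbers and 3 colors. The lncRNAs and the Mitf features were both chosen on these samples, and both are low in white skin. Neither the r values nor the ranks that follow are independent of that choice. One of the 4 Mitf features ranked 2nd in likeness to Ccr_lnc13007521 among 78848 genes (r = 0.98). The best rank of a Mitf feature for Ccr_lnc17821911 was 625 (r = 0.51).

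**Figure D3:**
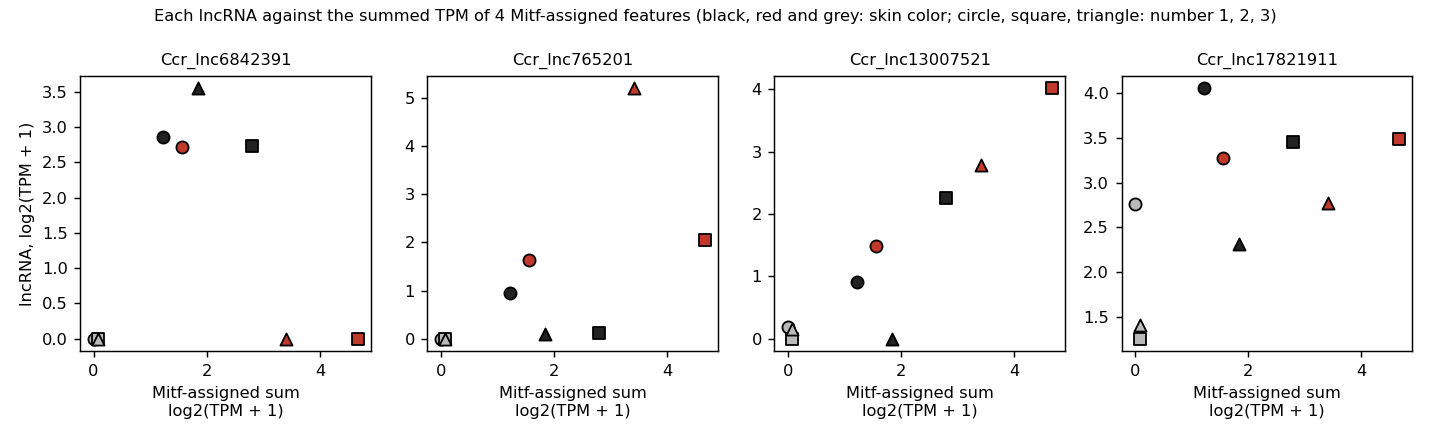
Level of each lncRNA, as log2(TPM + 1), against the summed level of the 4 features annotated as Mitf, on the same scale, with 1 point per library. The r over 9 libraries is 0.93 for Ccr_lnc13007521 and 0.63 for Ccr_lnc765201, while Ccr_lnc17821911 is above 0 in the white libraries (grey), where the sum is 0 to 0.06 TPM. Both axes hold genes chosen on these samples and low in white skin, so r is not independent of that choice.

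The 4 lncRNAs were not copies of one profile. Pearson's r of log2(TPM + 1) over the 9 libraries was 0.66 between Ccr_lnc765201 and Ccr_lnc13007521, 0.58 between Ccr_lnc13007521 and Ccr_lnc17821911, 0.46 between Ccr_lnc6842391 and Ccr_lnc17821911, and 0.29 between Ccr_lnc765201 and Ccr_lnc17821911. It was -0.25 between Ccr_lnc6842391 and Ccr_lnc765201 and -0.15 between Ccr_lnc6842391 and Ccr_lnc13007521. By Spearman's rho the 3 pairs without Ccr_lnc6842391 were at 0.70 to 0.83, and the 3 pairs with it at -0.18 to 0.35. Among 78848 genes the most like Ccr_lnc6842391 was TRINITY_DN152435_c5_g5 (r = 0.94), and the next 4 had r of 0.85 to 0.90. By log2(CPM + 1) that r was 0.63, and the gene had 8.38 counts in black library 3 and 4.36 to 19.69 in the white libraries, where the lncRNA had 120.60 and 0. For Ccr_lnc765201 it was TRINITY_GG_170293_c19_g1 (r = 0.96, next 4 from 0.93 to 0.94). For Ccr_lnc13007521 it was TRINITY_GG_128878_c49_g1 (r = 0.99, next 4 from 0.97 to 0.98), and for Ccr_lnc17821911 TRINITY_DN151714_c0_g1 (r = 0.94, next 4 from 0.83 to 0.87). The deposited tables give these genes no symbol.

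Among the 92 lncRNAs that the study lists, the 4 spanned the black to red range. Ranked by the mean log2(TPM + 1) of red minus black skin, Ccr_lnc765201 was at rank 1 (2.57), Ccr_lnc13007521 at rank 4 (1.71), Ccr_lnc17821911 at rank 61 (-0.09) and Ccr_lnc6842391 at rank 90 (-2.14). Over the list 37 were above 0 and 40 below, and 26 of the 92 were at 0 in all white libraries, as are Ccr_lnc6842391 and Ccr_lnc765201. By mean TPM over the 9 libraries the 4 lncRNAs were at ranks 13 to 22 of the list, and above 91.9% to 96.7% of the 315523 genes with any level. Of the 92, 30 passed the count filter in red against black skin, 18 with a higher and 12 with a lower value in red, and 0 were called (background 0%). Their median log2 fold change was 1.27, against -0.02 over all genes tested. The study chose this list on these samples.

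**Figure D4:**
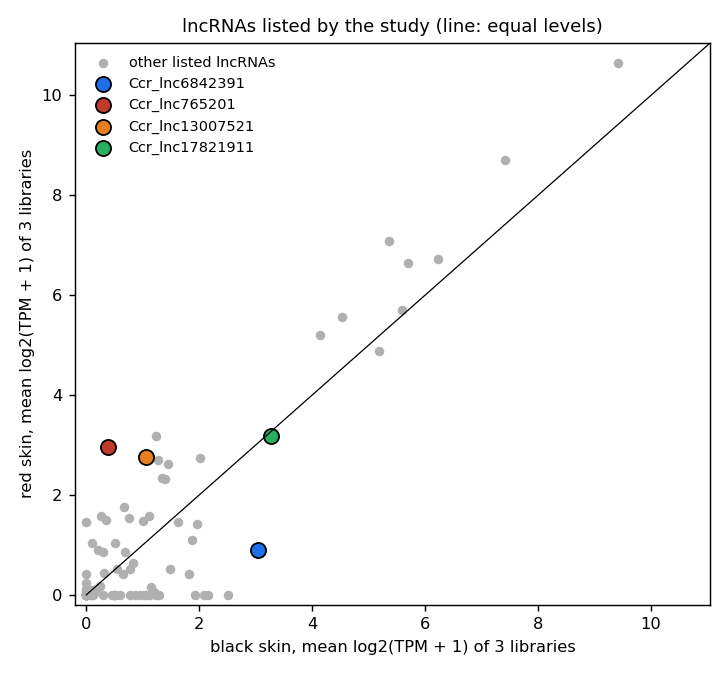
Mean log2(TPM + 1) of 3 red libraries against that of 3 black libraries for the 92 lncRNAs listed by the study, with the line of equal levels. Ccr_lnc765201 and Ccr_lnc13007521 lie above the line, Ccr_lnc6842391 below it, and Ccr_lnc17821911 close to it, 0.09 below.

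The study's pigmentation features did not share 1 order with the 4 lncRNAs. Of 25 such features, chosen by the study on these samples, 17 were tested in red against black skin, 7 with a higher and 10 with a lower value in red, and 0 were called (background 0%). Their median log2 fold change was -0.88, against -0.02 over all genes tested. In black against white skin 13 of 16 tested were higher in black, with a median of 4.68 against 0.01 over all genes tested, and 0 were called (0% of 68812 genes). The summed TPM of the 8 melanosome features was 12.71 to 74.90 in black, 1.06 to 15.66 in red and 1.75 to 3.23 in white skin, with overlap between black and red and between red and white. Within each number it was higher in black than in red, at 12.71 against 1.06, 74.90 against 15.66 and 18.13 against 7.04. Over the 9 libraries the r of log2(TPM + 1) with this sum was 0.43 for Ccr_lnc6842391, 0.48 for Ccr_lnc17821911, 0.41 for Ccr_lnc13007521 and -0.03 for Ccr_lnc765201. With the sum of the 14 melanogenesis features it was -0.61, -0.20, 0.13 and -0.15 in the same order.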

How the data were processed

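RNA of 3 black, 3 red and 3 white skin libraries was measured. The authors mapped reads to the C. carpio v3.0 genome with TopHat, assembled transcripts with Trinity, merged them with CD-HIT and ran RSEM. The labels' processing notes name TopHat2 2.0.10, RSEM 1.2.21 and edgeR 3.22.3. The expected counts were deposited as RSEM gave them for each assembled gene, neither normalized nor pooled. The deposited TPM values are scaled by the authors to a fixed total per library, and the deposited FPKM values were not used.

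Expected counts were rounded to whole numbers, filtered with filterByExpr (minimum count 10), scaled by TMM and tested in pairs of colors with edgeR 4.0.16 (R 4.3.3, quasi-likelihood test, Benjamini-Hochberg FDR over all genes tested), and called at an FDR up to 0.05 and a log2 fold change of 1 or more in size, the study's thresholds. The SE given for these tests is the size of the log2 fold change divided by the square root of the F statistic. It was derived in this way because the test itself returns no SE, and the intervals rest on it. No block was used in the main fit. Same-numbered libraries correlated in their deviations from the color means (r at least 0.49 in 9 of 9 pairs, against at most -0.0007 in 18 pairs of different number). Centering on 3 libraries itself pushes the different-numbered pairs below 0. Without centering, r of log2 CPM was 0.80 to 0.87 in same-numbered pairs and 0.46 to 0.76 in the others. The labels say that 1 fish carried all colors, so the fit with the replicate block was taken as the paired one. A fish and a preparation shared by a number cannot be told apart. Alternatives were the block, RLE size factors, DESeq2 1.42.0, other filters, all 9 libraries in one fit, limma 3.58.1 on log2(TPM + 1) and log2(TPM + 0.1), and each library left out. Permutation tests were exact and two-sided (scipy 1.17.1). They moved libraries between colors without regard to the replicate number, so they do not use the pairing. The scripts were tested on simulated data. A floor of 3 counts is 0.120 to 0.218 CPM per library.

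The members and lists were chosen with earlier results of these data known. Named genes are the 4 lncRNAs, their listed neighbours, tested genes sharing their assembly number and the gene most like each. Neighbours and lncRNAs were matched by splitting the digits of their names into exactly 1 identifier. Differential expression columns of the authors were not used, and genome positions were not analysed here.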

Additional observations from a re-analysis of the deposited data

How the results depend on the processing

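The replicate block changed no call: edgeR called 0 genes in each pair of colors without it and 0 with it, while genes with an unadjusted p under 0.05 went from 216 to 1247 in red against black, from 262 to 1364 in black against white and from 271 to 1089 in red against white skin. DESeq2 called 33, 43 and 57 genes in these comparisons, and edgeR without the filter called 355, 389 and 346, of which Ccr_lnc765201 is 1 in red against black (log2 fold change 4.75). All other settings, each library left out included, called 0. Genes whose groups did not overlap moved when TMM CPM replaced TPM: from 410 to 790 with red above black and from 558 to 1087 below, from 245 to 994 with black above white and from 3894 to 1215 below, and from 160 to 920 with red above white and from 3449 to 1360 below. The cause was not tested. With 1 library left out, the red against black log2 fold change ranged from -9.64 to -0.36 for Ccr_lnc6842391, from 2.53 to 6.93 for Ccr_lnc765201, from 1.21 to 3.49 for Ccr_lnc13007521 and from -0.94 to 0.39 for Ccr_lnc17821911, which turned sign without black library 1 (0.39) and without red library 3 (0.09). With the replicate block the 4 values were -3.99, 4.30, 2.56 and -0.07. The gene most like each lncRNA was another one in 6 of 8 other measures and in 17 of 36 fits with a library left out. Low counts limit the black level of Ccr_lnc765201 and the white level of Ccr_lnc13007521.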
